A study of Homo sapiens with 6 samples.

Results

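The integrated stress response genes described here were ATF4, ATF3, ATF5, DDIT3, TRIB3, CHAC1, PPP1R15A, NUPR1, SESN2 and DDIT4, taken from the deposited gene table by symbol. They were 10 of its 38843 genes, and all 10 passed the filter on low counts that left 21965 genes for the test. The study compared messenger RNA of PC-3, an established human prostate cancer cell line described in the labels as wild type, between untreated control cells and cells given cepharanthine hydrochloride at 5 µM, an alkaloid salt of plant origin. Both groups were collected on day 3 and held 3 libraries each, and the medium of both was DMEM with fetal bovine serum. The labels name no vehicle for the control cells. Separate cultures are not stated for the libraries of a group, so the spread behind each p-value may be technical. The series asks how the compound works on prostate cancer cells, and this comparison which transcripts differ under it.

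In the integrated stress response, kinases that sense amino acid shortage, misfolded protein in the endoplasmic reticulum, haem shortage or double-stranded RNA phosphorylate the initiation factor eIF2α, which lowers translation in general while letting the mRNA of the transcription factor ATF4 be translated. ATF4 then raises genes of amino acid supply, redox balance and further transcription factors such as CHOP, the product of DDIT3. Several of its targets feed back: PPP1R15A (GADD34) directs the phosphatase that removes phosphate from eIF2α, and TRIB3 is a pseudokinase that binds ATF4 and CHOP and restrains them. Because ATF4 is controlled largely in translation, its transcript is an incomplete measure of its protein, which was not measured here.

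Treated cells held more transcript of 9 of the 10 genes and less of 1, CHAC1. DDIT3 differed most, at 4.34 times the control level, followed by ATF3 at 3.19 times, DDIT4 at 2.82 times and NUPR1 at 2.76 times. ATF4 itself was 1.66 times and TRIB3 1.71 times the control level, while CHAC1 was at 0.655 of it. All 10 passed the test (edgeR quasi-likelihood test with Benjamini-Hochberg adjustment over all genes, adjusted p under 0.05), against 27.9% of all genes tested, 14.7% called higher and 13.2% called lower. In all 10 the 3 treated values lay on one side of the 3 control values, as they did in 43.4% of the genes tested. The median log2 fold change (treated over control) of the 10 genes was 1.002, beside -0.016 over all genes tested. The 10 genes were chosen with earlier results of these data known, so these shares and medians are a description. A bulk library cannot tell a change in every cell from a larger change in some cells.

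**Figure D1:**
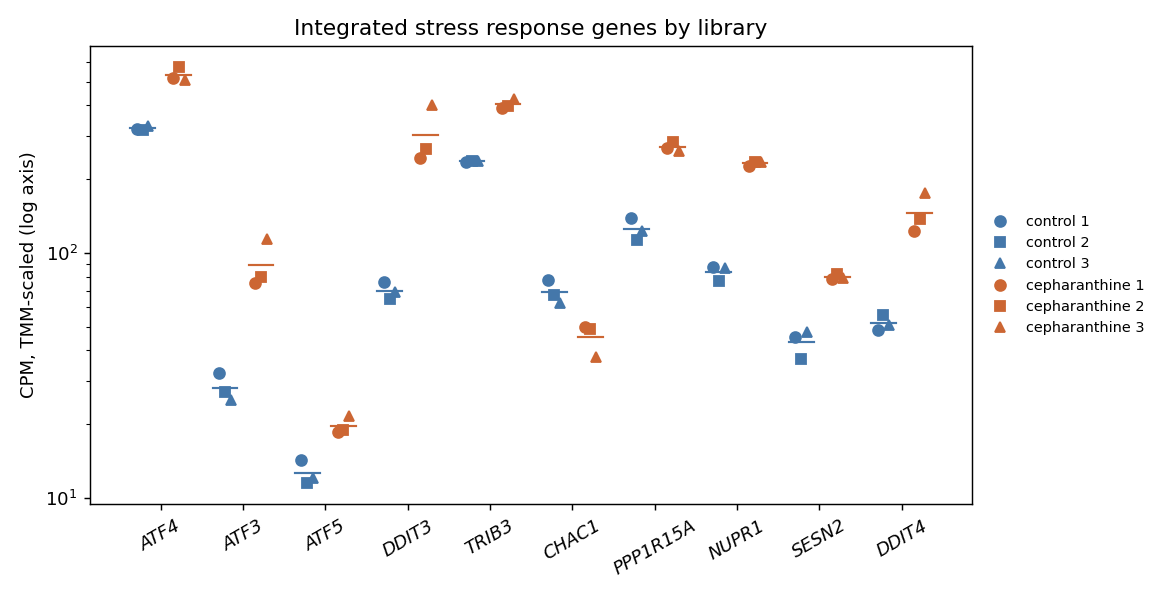
Level in CPM (counts scaled to TMM-adjusted library size, log axis) of the 10 genes in each of the 3 control (blue) and 3 cepharanthine (orange) libraries, with a bar at each group mean. The groups do not overlap for any gene, CHAC1 alone lies lower in treated cells, and treated library 3 is the highest for DDIT3 (401 CPM), ATF3 (113.5 CPM) and DDIT4 (176 CPM).

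Libraries held 52774506 to 59241954 counts in the control group and 53017816 to 68241156 in the treated group, and the mean totals did not differ beyond the spread (p = 0.6 in an exact two-sided permutation test, which cannot go below 0.1 with 3 libraries a group). At this depth a count of 0 allows up to 3 counts, or 0.0426 to 0.0594 CPM depending on the library, for counting error only, and the lowest of the 10 genes, ATF5, had 608 to 1514 counts per library. Transcripts of the mitochondrial genome took 8.75% to 12.2% of control counts and 4.86% to 6.61% of treated counts. Without those genes in the fit the calls of the 10 genes were again 9 higher and 1 lower, with DDIT3 at a log2 fold change of 2.12 and CHAC1 at -0.61. The 4 markers of PC-3 epithelial cells summed to 532 to 568 CPM in control and 559.8 to 586 CPM in treated libraries, KRT8 being called higher and EPCAM lower. Of 5 genes of the androgen axis 3 were in the files used here. They summed to 66.9 to 77.0 CPM in control and 43.8 to 46.9 CPM in treated libraries. Among them TMPRSS2 was called lower, with means of 67.7 CPM in control and 42.6 CPM in treated libraries. Of 8 markers of leukocytes, endothelium and fibroblasts 7 were in the files used here, summing to 138 to 170.3 CPM in control and 90.5 to 108.0 CPM in treated libraries, with 0 called higher and 2 lower, PECAM1 and COL3A1. PTPRC, a leukocyte marker, reached at most 0.416 CPM in any library, but CD68, also of leukocytes, had means of 62.7 CPM in control and 63.7 CPM in treated libraries. VWF, of endothelium, had 0 counts in 3 of 6 libraries, but PECAM1, also of endothelium, had means of 46.5 CPM in control and 21.0 CPM in treated libraries. The part of these markers in the results was not tested.

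ATF4 (ENSG00000128272) lies on chromosome 22 from 39519672 to 39522683 on the plus strand, in GRCh38 coordinates of the deposited table. Its transcript was at 321, 316 and 329 CPM in control libraries and at 519, 575 and 508.5 CPM in treated ones. The lowest treated value stood well above the highest control value, and the controls were close together. The means were 322 ± 6.51 and 534 ± 35.8 CPM (SD, n = 3 per group), a log2 fold change of 0.73 ± 0.07 (SE, edgeR adjusted p = 9.33e-05). The deposited table also lists the processed ATF4 copies ATF4P1 to ATF4P4, whose sequence resembles the gene. They took 0.401% to 0.853% of the counts of ATF4 and its copies together, with the highest share in a control library.

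DDIT3 (ENSG00000175197, chromosome 12 from 57516588 to 57521737, minus strand) encodes CHOP, a bZIP factor that pairs with other bZIP proteins and is known for turning prolonged endoplasmic reticulum stress towards cell death. Control libraries held 76.0, 64.5 and 69.3 CPM, and treated libraries 244.5, 264.5 and 401 CPM. Every treated value was far above the controls, and treated library 3 stood above the other treated libraries. The means were 69.9 ± 5.75 and 303 ± 85.1 CPM, a log2 fold change of 2.12 ± 0.17 (edgeR adjusted p = 2.71e-05), and without treated library 3 the log2 fold change was 1.86 with a smaller SE of 0.09. DDIT3 overlaps the opposite-strand genes MARS1 and MBD6, and whether counting used strand is not given in the sources used here. MARS1 was at 364 CPM in control and 318 CPM in treated cells (edgeR adjusted p = 0.0784) and MBD6 at 77.9 and 69.5 CPM (adjusted p = 0.521), so neither moved upward with DDIT3. MIR616, within the gene on the same strand, was listed at 0.435 and 1.61 CPM (16 to 159 counts per library) and called higher. Whether its counts came from DDIT3 transcript was not tested.

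ATF3 (ENSG00000162772, chromosome 1 from 212565334 to 212620772, plus strand) encodes a stress-induced bZIP factor that often acts as a repressor. It was at 32.3, 26.98 and 25.03 CPM in control libraries and at 75.6, 79.6 and 113.5 CPM in treated ones. Treated library 3 was again the highest, and the groups lay apart. Group means were 28.1 ± 3.76 and 89.6 ± 20.8 CPM, with a log2 fold change of 1.67 ± 0.16 (edgeR adjusted p = 6.68e-05), or 1.47 without that library. ATF5 (ENSG00000169136, chromosome 19 from 49928702 to 49933935, plus strand), a bZIP factor translated like ATF4 and tied to the mitochondrial stress response, was the least abundant and rose the least of the 9. Its 3 control values were 14.3, 11.5 and 12.03 CPM and its treated values 18.5, 19.0 and 21.5 CPM. The groups did not overlap, and the log2 fold change was 0.64 ± 0.13 (edgeR adjusted p = 0.00473). ATF5 overlaps NUP62 on the opposite strand, which went from 74.7 to 89.4 CPM (edgeR adjusted p = 0.0602), so with strand use unknown a part of the ATF5 counts could come from it, which was not tested.

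PPP1R15A (ENSG00000087074, chromosome 19 from 48872421 to 48876058, plus strand) was the feedback gene with direct action on eIF2α. It was at 138.5, 113 and 123 CPM in control libraries and at 267, 285 and 260.1 CPM in treated ones. The treated values were close together, with treated library 3 the lowest of them. The log2 fold change was 1.12 ± 0.09 (edgeR adjusted p = 2.46e-05), a level 2.17 times that of control cells. TRIB3 (ENSG00000101255, chromosome 20 from 362835 to 397559, plus strand) was at 236, 237 and 238 CPM in control libraries and at 390.5, 399 and 426 CPM in treated libraries. Its controls differed by an SD of only 1.14 CPM, and its log2 fold change was 0.77 ± 0.07 (edgeR adjusted p = 4.18e-05). NUPR1 (ENSG00000176046, chromosome 16 from 28532708 to 28538974, minus strand), a small nuclear protein of the stress response, had 87.5, 77.0 and 87.1 CPM in control and 227, 234 and 234 CPM in treated libraries. The treated values were nearly equal, and its log2 fold change of 1.47 ± 0.08 had the smallest p of the 10 genes, rank 26 of all genes tested (edgeR adjusted p = 2.95e-06).

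SESN2 and DDIT4 restrain mTORC1, the kinase complex that drives growth when nutrients are present, SESN2 as a leucine sensor and DDIT4 (REDD1) through the TSC complex. SESN2 (ENSG00000130766, chromosome 1 from 28259518 to 28282491, plus strand) was at 45.2, 36.9 and 47.6 CPM in control libraries and at 78.4, 82.3 and 79.0 CPM in treated ones. Treated libraries were within a narrow range above all controls, with a log2 fold change of 0.89 ± 0.10 (edgeR adjusted p = 0.000173). DDIT4 (ENSG00000168209, chromosome 10 from 72273924 to 72276036, plus strand) was at 48.4, 55.6 and 50.7 CPM in control and 123, 137.5 and 176 CPM in treated libraries. Treated library 3 was the highest, the log2 fold change was 1.496 ± 0.13 (edgeR adjusted p = 3.53e-05), and without that library it was 1.33.

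CHAC1 (ENSG00000128965, chromosome 15 from 40952962 to 40956512, plus strand), which breaks down glutathione and is known as a target of ATF4, was the only gene of the 10 that fell. Control libraries held 77.8, 67.3 and 62.3 CPM and treated libraries 49.6, 48.7 and 37.5 CPM. The groups did not overlap, though the lowest control and the highest treated value were nearer in ratio than for ATF3 or DDIT3, and treated library 3 was the lowest. The means were 69.1 ± 7.90 and 45.3 ± 6.71 CPM, a log2 fold change of -0.61 ± 0.12 (edgeR adjusted p = 0.00452). Leaving out each library in turn gave -0.68 to -0.49, all called. The call ended in limma fits, linear models of log values, of log2(FPKM + 1) without a filter (-0.54, adjusted p = 0.0602) and of log2(TPM + 1) (-0.37, adjusted p = 0.0674). FPKM scales counts to gene length and library size, and TPM also sets every library to the same sum. Rescaling to TPM moved the median of all genes to 0.26, and relative to that median CHAC1 was at -0.63, beside -0.60 relative to the median in the edgeR fit.

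**Figure D2:**
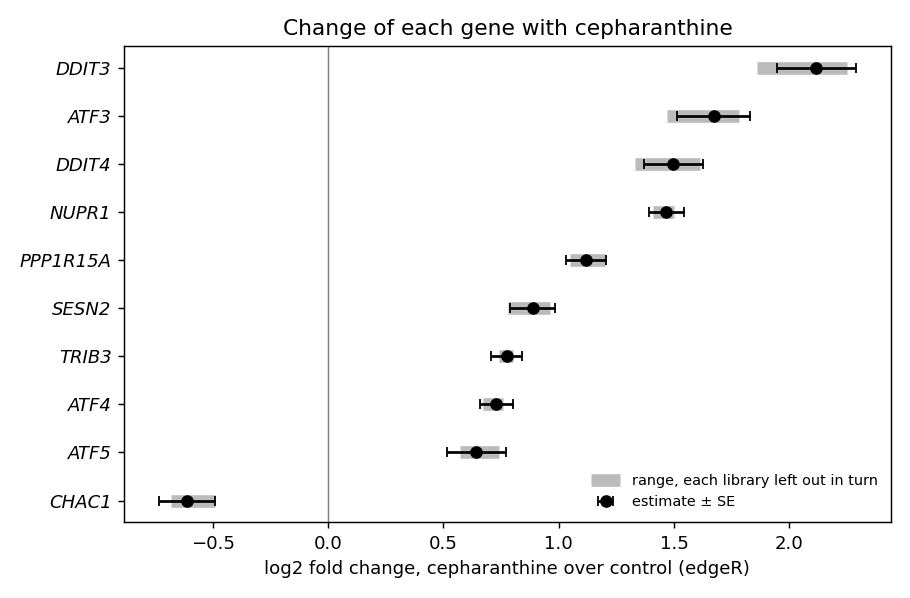
Log2 fold change (cepharanthine over control, edgeR) of each gene, with dots at the estimate, bars of 1 SE and grey bands for the range when each library was left out in turn. Bands of the 9 higher genes stay above 0, the lowest being that of ATF5 from 0.57 to 0.74, and the band of CHAC1 stays below 0.

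Treated library 3 had the most counts, 68241156, and the lowest share of mitochondrial transcripts, 4.86%. Its level over the mean of the other treated libraries, on the log2 scale, was 0.66 for DDIT3, 0.55 for ATF3, 0.44 for DDIT4 and 0.20 for ATF5. The other genes that rose lay between -0.10 for ATF4 and 0.11 for TRIB3, and CHAC1 was at -0.39. Thus the library with most DDIT3, ATF3 and DDIT4 transcript had least CHAC1 and no more ATF4 than the others. Among 12093 genes tested with a mean of at least 5 CPM, 114 (0.943%) were at least 1.5 times higher in that library, with a median of 0.005 on the log2 scale, and of the 10 genes DDIT3 was past that fold.

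Levels of different genes can be compared only per length, here on the deposited FPKM scale. The length behind each FPKM value was not checked, and the order depends on it. In mean control CPM NUPR1 (83.9) stood above CHAC1 (69.1) and DDIT4 (51.55), but in FPKM it was below both. In control cells the order was ATF4 at 94.6 ± 2.16 FPKM, then TRIB3 (66.9), DDIT3 (45.7), PPP1R15A (34.8), CHAC1 (28.8), DDIT4 (21.5), NUPR1 (13.0), SESN2 (10.6), ATF3 (5.94) and ATF5 (3.71 ± 0.397). No neighbours in this order overlapped between libraries. In treated cells DDIT3 led at 207 ± 65.4 FPKM, with ATF4 at 163 ± 3.94 FPKM and TRIB3 at 119 ± 9.42 FPKM behind it. Its 3 values were 168, 171 and 283 FPKM, each just above or well above the highest ATF4 value of 167 FPKM. PPP1R15A (78.4 FPKM) and DDIT4 (63.1 FPKM) overlapped, as did SESN2 (20.5 FPKM) with ATF3 (19.8 FPKM) and ATF3 with CHAC1 (19.5 FPKM), while ATF5 was again last at 6.04 ± 0.704 FPKM. On the FPKM scale CHAC1, above DDIT4, NUPR1, SESN2 and ATF3 in control cells, was below the mean of each of them in treated cells.

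A ratio of a gene to ATF4 in the same library does not depend on how libraries are scaled, and it separates genes that rose along with ATF4 transcript from those that differed from it. The log2 ratio of DDIT3 to ATF4 was -2.08, -2.29 and -2.25 in control libraries and -1.08, -1.12 and -0.34 in treated ones, a difference of 1.36 between the means. Ratios of ATF3, DDIT4, NUPR1 and PPP1R15A were also higher in every treated library than in any control, by 0.93, 0.75, 0.74 and 0.39. That of CHAC1 was lower in every treated library, from -2.23 ± 0.18 to -3.57 ± 0.19, a difference of -1.34. Each of these 6 ratios had an exact two-sided permutation p of 0.1, the smallest possible here (0.15 after Benjamini-Hochberg adjustment over the 9 ratios), so none can pass 0.05. ATF4 itself rose by 0.73 on the log2 scale, so a gene with no change would have a lower ratio in treated libraries. The difference of CHAC1 includes this rise of ATF4. How many of all genes have ratios to ATF4 that lie apart between the groups was not computed. For SESN2 (0.17, exact permutation p = 0.2), TRIB3 (0.05, p = 0.7) and ATF5 (-0.08, p = 0.5) the groups overlapped. TRIB3 to ATF4 was -0.44 ± 0.03 in control and -0.40 ± 0.14 in treated libraries. The sign of the small differences turned when a library was left out, to -0.02 for TRIB3 without treated library 3 and to 0.01 for ATF5 without control library 1.

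**Figure D3:**
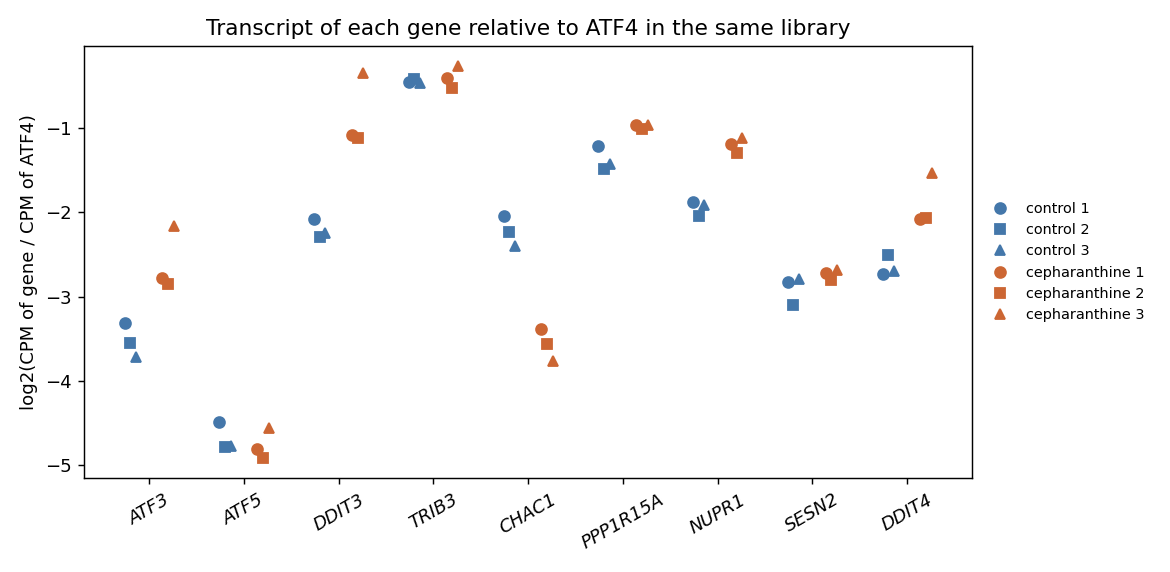
Log2 ratio of the CPM of each of the other 9 genes to the CPM of ATF4 in the same library, with blue for the 3 control and orange for the 3 cepharanthine libraries. DDIT3, ATF3, DDIT4, NUPR1 and PPP1R15A lie higher in treated libraries, CHAC1 lies lower by 1.34, and the groups overlap for ATF5, TRIB3 and SESN2.

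Promoter sequence was read for 9 of the 10 genes from RefSeq windows of 300 bases (250 before and 50 after a start site, GRCh38.p14), 16 windows in all, and none was matched for NUPR1. They were searched on both strands for TGATGNAA, a core of the element bound by ATF4 paired with a C/EBP protein, for TGACGTCA, the cyclic AMP response element, and for TGACTCA, the AP-1 element. The motifs do not contain one another. The stretches printed here run in the direction of transcription, with the match in capitals, and are those around the match in ATF3 and CHAC1, which moved in opposite directions, and in PPP1R15A and DDIT3. Each lies before the RefSeq start used, at chr1:212565170-212565269 (plus strand), chr15:40953251-40953280 (plus), chr19:48872352-48872381 (plus) and chr12:57520735-57520764 (minus). By the gene coordinates of the deposited table the CHAC1 and DDIT3 stretches lie inside the gene, which begins further upstream there. The ATF3 stretch meets no annotated UTR in GENCODE 29, and the others are short because longer ones would meet one.
ATF3: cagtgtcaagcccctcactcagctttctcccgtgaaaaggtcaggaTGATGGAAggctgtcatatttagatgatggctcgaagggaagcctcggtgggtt
CHAC1: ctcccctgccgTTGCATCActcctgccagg
PPP1R15A: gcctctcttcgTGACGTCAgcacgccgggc
DDIT3: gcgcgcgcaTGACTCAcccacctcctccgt

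The ATF4 and C/EBP core was present in ATF3, 191 to 184 bases before the more upstream of its RefSeq start sites. The window of the other ATF3 start site had 0 matches, and which start was in use was not tested. In CHAC1 the core lay 209 to 202 bases before the RefSeq start and on the other strand, where it reads TTGCATCA in the direction of transcription. Over all genes 1217 of 27305 (4.46%) had it in a window. The cyclic AMP response element was found in PPP1R15A, 58 to 51 bases before its RefSeq start, and in 2.25% of all genes. The AP-1 element was found in DDIT3, 241 to 235 bases before its first listed RefSeq start, and in 1 of 3 windows of ATF5. Over all genes 6.05% had it. Of the 396 genes tested with the ATF4 and C/EBP core, 17.2% were called higher and 11.1% lower, and of the 12379 genes tested without it 19.7% and 14.9%. A match here is a description of letters in a window, not a site of binding, and a window without a match says only that these letters are not in it.

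Upstream of ATF4, 1 of the 4 kinases of eIF2α passed the test, beside 27.9% of all genes tested. To be set beside the counts of this list and those below, 14.7% of all genes tested were called higher and 13.2% lower. All of these lists were chosen with earlier results of these data known, so their counts are a description. EIF2AK2 (PKR), which senses double-stranded RNA, rose by a log2 fold change of 0.59 ± 0.09 (edgeR adjusted p = 0.0013), from 133 ± 17.2 to 200.1 ± 0.687 CPM. EIF2AK3 (PERK), the sensor in the endoplasmic reticulum, was at -0.08 ± 0.08 (adjusted p = 0.503), EIF2AK4 (GCN2), the amino acid sensor, at 0.09 ± 0.08, and EIF2AK1 (HRI), the haem sensor, at 0.09 ± 0.07. PERK turned to 0.16 in the limma fit of log2(TPM + 1). These are transcript levels, and kinase activity was not measured. Of the 8 subunits of eIF2 and its exchange factor eIF2B, 1 rose (EIF2S2, 0.41 ± 0.07), 1 fell (EIF2B1, -0.25 ± 0.08, adjusted p = 0.0399) and 6 were not called. The number called among these subunits, like that among the kinases, was near the share over all genes tested. Of the 6 fits that left out a library, the EIF2B1 call held in the 1 without treated library 1 and ended in the others.

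Among 9 regulators of the kinases and of the phosphatase, 4 rose and 3 fell. PPP1CA and PPP1CB, catalytic subunits of the phosphatase that GADD34 directs, rose by 0.52 ± 0.08 and 0.65 ± 0.10 (edgeR adjusted p = 0.00086 and 0.000851), as did PPP1R15B (CReP, 0.31 ± 0.07), the constitutive relative of PPP1R15A. GCN1, the activator of GCN2 on stalled ribosomes, fell from 560.2 ± 33.7 to 316 ± 11.1 CPM, by 0.83 on the log2 scale (edgeR adjusted p = 4.45e-05). DELE1 and OMA1, which carry mitochondrial stress to HRI, were called lower at -0.32 ± 0.09 and -0.49 ± 0.16, and of the 6 fits that left out a library the DELE1 call held in those without control library 2 or treated library 2, and the OMA1 call in the latter. Without control library 1 or 3, or without treated library 1 or 3, GCN1 alone was called lower in this list.

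Of 6 tested relatives of the 10 genes, 2 rose, 1 fell and 3 were not called, with a median log2 fold change of -0.31. TRIB2 fell from 261 ± 47.8 to 107.5 ± 8.86 CPM, a log2 fold change of -1.28 ± 0.12 (edgeR adjusted p = 7.67e-05), while TRIB3 rose, and TRIB1 was at -0.13 ± 0.13 (adjusted p = 0.516). PPP1R15B, given above, rose like PPP1R15A. SESN1 was called higher, like SESN2, at 0.54 ± 0.17 (adjusted p = 0.0429, a call that held only without treated library 1 among the 6 fits that left out a library) and SESN3 was at -0.68 ± 0.26 (adjusted p = 0.0769). CHAC2, the constitutive relative of CHAC1, was at 3.15 CPM in control and 2.24 CPM in treated cells and was not called. DDIT4L had 0 counts in all 6 libraries.

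Of 19 other bZIP factors listed, 10 were called higher and 1 lower. JUN rose by 0.89 ± 0.08 (edgeR adjusted p = 4.46e-05), CEBPG, a partner of ATF4, by 0.74 ± 0.10, CEBPB by 0.60 ± 0.07, NFE2L1 by 0.63 ± 0.08 and CREB1 by 0.62 ± 0.08. FOSL1 was called lower, from 885 ± 174 to 578 ± 114 CPM (adjusted p = 0.0204), and that call ended without control library 1, control library 3 or treated library 3 (highest adjusted p 0.0849). The list median was 0.34.

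Among known targets of ATF4 outside the 10 genes, of 26 genes of amino acid synthesis, uptake and tRNA charging 10 rose, 2 fell and 14 were not called, with a median log2 fold change of 0.16. The aminoacyl-tRNA synthetases GARS1, WARS1 and AARS1 rose by 0.71 ± 0.07, 0.64 ± 0.07 and 0.60 ± 0.08 (edgeR adjusted p = 8.88e-05, 0.000178 and 0.000437), and the mitochondrial enzyme PCK2 by 0.66 ± 0.10. The glycine transporter SLC6A9 fell from 119 ± 12.3 to 76.9 ± 8.33 CPM (adjusted p = 0.00167), and the arginine transporter SLC7A1 was called lower at -0.31 ± 0.09, a call that held only without control library 2 among the 6 fits that left out a library. Asparagine synthetase, ASNS, a widely used readout of ATF4, was at 201 ± 30.4 CPM in control and 234 ± 2.52 CPM in treated cells and was not called (0.22 ± 0.10, adjusted p = 0.145). The serine synthesis enzyme PSAT1 (-0.22 ± 0.10, adjusted p = 0.124) and the cystine transporter SLC7A11 (0.16 ± 0.09, adjusted p = 0.218) were not called either.

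Of 12 other targets of ATF4, 7 rose and 0 fell, with a median of 0.57. Those that rose include CEBPB and CEBPG, already counted among the bZIP factors. They also include VEGFA, which was near the threshold (0.23 ± 0.07, edgeR adjusted p = 0.0448). The autophagy receptor SQSTM1 rose by 1.44 ± 0.08 (edgeR adjusted p = 2.95e-06) and MAP1LC3B, which marks autophagosomes, by 1.19 ± 0.08. The secreted stress cytokine GDF15 rose from 1103 ± 213 to 1867 ± 75.1 CPM (adjusted p = 0.0017). All 4 of the listed targets of CHOP were called higher, beside 14.7% of all genes tested. This short list too was chosen with earlier results of these data known. ERO1A, an oxidase of the endoplasmic reticulum, rose by 0.81 ± 0.07 and BBC3, a BH3-only gene, by 1.30 ± 0.19. The death receptor TNFRSF10B rose by 0.51 ± 0.08, and BCL2L11, another BH3-only gene, by 0.37 ± 0.11. The BCL2L11 call (edgeR adjusted p = 0.0261) held in 2 of 6 fits that left out a library, the highest adjusted p being 0.098, and ended without control library 2 or 3 or treated library 1 or 2.

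The IRE1 and ATF6 branches of the unfolded protein response work beside PERK in the endoplasmic reticulum. Of 14 of their genes 8 rose, 0 fell and 6 were not called, with a median of 0.49. The sensor ERN1 (IRE1) rose by 1.19 ± 0.07 (edgeR adjusted p = 6.88e-06), and the chaperone HSP90B1 by 0.67 ± 0.07. The chaperone HSPA5 (BiP) went from 2752 ± 186 to 5503 ± 478 CPM (adjusted p = 3.48e-05). The total XBP1 transcript was at 0.05 ± 0.07 (adjusted p = 0.662), and its splicing by IRE1 was not measured in gene counts.

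Around CHAC1, the glutathione genes were mixed, with 2 of 7 higher, 1 lower, 4 not called and a median log2 fold change of -0.10. GCLC, the catalytic subunit of the enzyme that limits glutathione synthesis, rose by 0.61 ± 0.07 (edgeR adjusted p = 0.000199), and its modifier subunit GCLM was called higher at 0.41 ± 0.10, a call that ended without control library 3 or treated library 3. GGT1, which breaks down glutathione outside the cell, fell from 11.0 ± 0.998 to 5.81 ± 0.747 CPM (adjusted p = 0.00202). Around SESN2 and DDIT4, 4 of 16 genes of mTORC1 and its inputs rose, 3 fell and 9 were not called, with a median of 0.03. The glutathione and mTORC1 counts stand beside 14.7% called higher and 13.2% called lower over all genes tested. RRAGC, a Rag GTPase that brings mTORC1 to the lysosome, rose by 1.09 ± 0.09 (adjusted p = 3.61e-05) and the activator RHEB by 0.58 ± 0.09, while RPTOR and MTOR, subunits of the complex, fell by 0.56 and 0.41 on the log2 scale (adjusted p = 0.000543 and 0.00344). WDR59, of a complex that relieves the block on mTORC1, was called lower at -0.23 ± 0.07, but among fits that left out a library only without control library 2, and it was at 0.01 in the limma fit of log2(TPM + 1). Without control library 1 the mTORC1 genes called higher were 2.

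**Figure D4:**
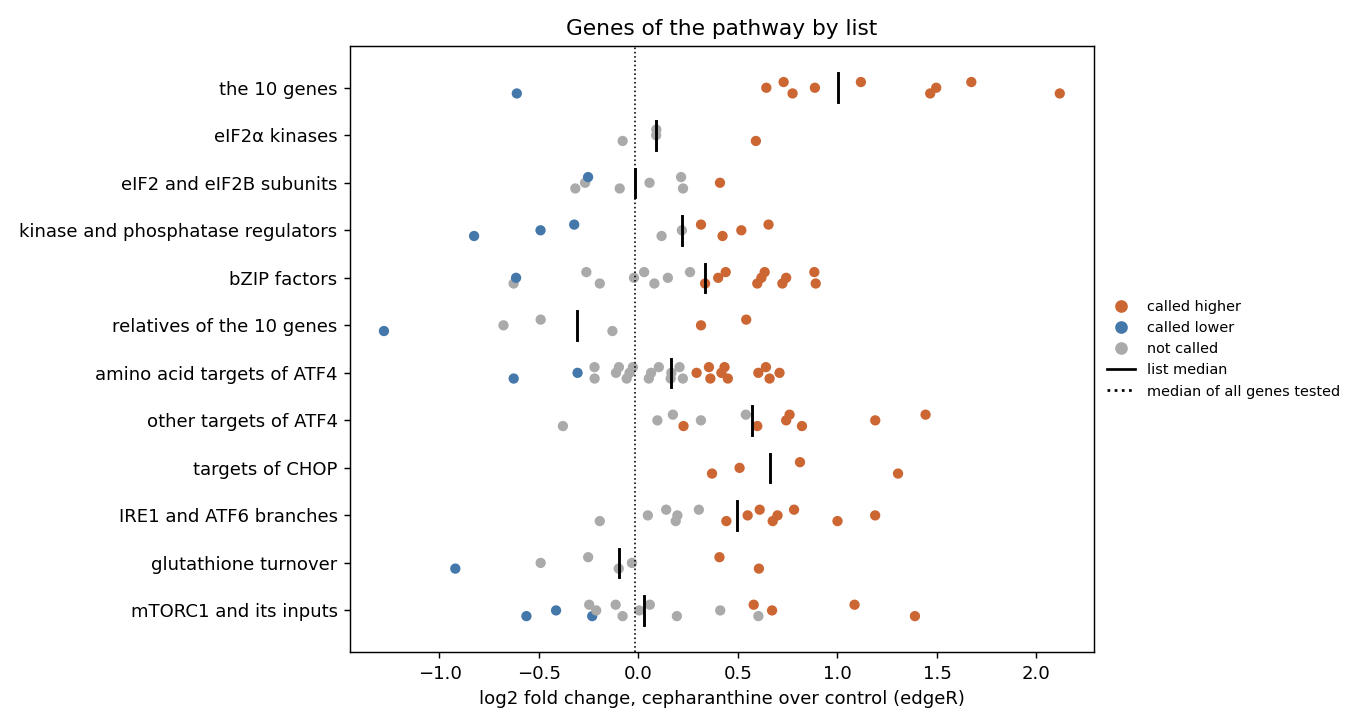
Log2 fold change (cepharanthine over control, edgeR) of the genes tested in each list, 1 dot a gene, orange for called higher, blue for called lower and grey for not called, with a black bar at the list median and a dotted line at the median of all genes, -0.016. The 10 genes have a median of 1.002, above those of all other lists, of which targets of CHOP have 0.66 and relatives of the 10 genes -0.31.

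Over all of these lists, with each gene counted once, 120 genes outside the 10 were tested, of which 50 rose, 12 fell and 58 were not called, with a median log2 fold change of 0.21. Calls of higher level covered 14.7% and of lower level 13.2% of all genes tested. The genes whose log2 CPM over the 6 libraries followed ATF4 most closely, among 11964 genes outside the lists with a mean of at least 5 CPM, were ALDOA, PWP1, PRELID3B, CDKN2A and PIMREG, with Pearson r from 0.9987 to 0.9979. For CHAC1 they were ZSWIM7, PDE1C, CAV2, ERCC1 and PPAN, with r from 0.9953 to 0.9937. These 6 points fall into the treated and control groups, so r mostly reflects that contrast and is given as a description.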

How the data were processed

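Raw counts and FPKM per gene and library were deposited in 1 table, per the file headers. Its control columns carry other names than the labels, so group and number joined them. Builds GRCm38, mm10 and hg38 stand in the submitters' processing notes without roles, and all 10 genes overlapped their GENCODE 29 (GRCh38) entry. The sources used here do not name the aligner, counter or strand use.

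Counts were filtered with filterByExpr, scaled by TMM and tested with edgeR 4.0.16 (R 4.3.3), two-sided, with Benjamini-Hochberg adjustment over 21965 genes and a threshold of 0.05. SE is the absolute log2 fold change over the square root of F. CPM used TMM-scaled library sizes. Libraries of the same number did not deviate together (r from -0.07 to 0.004). Alternatives used DESeq2 1.42.0, limma 3.58.1 on log2 values (pseudocount 1 or 0.1, mean FPKM of at least 1), RLE factors, no filter, no mitochondrial genes and libraries left out. The 10 genes and the lists were chosen with earlier results of these data known. Named list genes were up to 4 with the smallest adjusted p per list, plus any called against its majority. ASNS, PSAT1, SLC7A11, GDF15, XBP1, TRIB1, CHAC2, DDIT4L and the overlapping genes were chosen after their values were seen.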

Additional observations from a re-analysis of the deposited data

How the results depend on the processing

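Over 15 alternatives, all 150 values of the 10 genes kept their direction and 148 were called. Genes called higher among the 10 were 9 in every alternative. Genes called lower among them were 0 in limma on log2(FPKM + 1) without a filter and 0 in limma on log2(TPM + 1), where CHAC1 was lost. Pathway genes called lower, 12 in the main fit, were 7 with a replicate block in edgeR, 7 in limma without a filter and 5 in limma on TPM, and 6 to 11 over fits without one library (6 without control library 1, 6 without control library 3 and 7 without treated library 3). Pathway genes called higher were 39 to 61. With the replicate block 2544 genes were higher and 2294 lower in all, and the 10 genes were again 9 and 1. EIF2AK3 reversed to 0.155 and WDR59 to 0.008 in limma on TPM, a fit whose median over its 13451 genes was 0.26. The difference in log2 ratio to ATF4 turned its sign for ATF5 without control replicate 1 and for TRIB3 without cepharanthine replicate 3, and ranged over fits without one library from -0.183 to 0.014 for ATF5 and from -0.024 to 0.111 for TRIB3. The cause was not tested. Depth limited no call of the 10 genes, of which the scarcest had 608 counts; with 3 libraries a group, ratio tests cannot reach 0.05.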
